A study of Mus musculus with 12 samples.

Results

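The alpha, beta and gamma crystallins are the structural proteins that fill the fibre cells of the eye lens and keep it transparent. Their mRNA was followed in 12 RNA sequencing libraries that were made from whole mouse retina and from the ribosomes of its rod photoreceptors. The genes were 9 crystallins taken by symbol from a table of 56748 genes: the alpha crystallins Cryaa and Cryab, the beta crystallins Cryba1, Cryba2, Cryba4, Crybb1, Crybb2 and Crybb3, and the gamma crystallin Crygs. They were chosen because earlier work on these values had shown them in the retina libraries, so their presence and their levels are given below as a description. All 9 were listed, and all 9 passed the filter on low values in every comparison.

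Alpha crystallins are small heat shock proteins that hold other proteins in solution. Cryab is also made outside the lens, in heart, muscle, brain and some retinal cells, while Cryaa is mostly a lens gene. The beta and gamma crystallins share a fold and are not chaperones. In a dissected eye the lens lies against the retina, and lens fibres hold very large amounts of crystallin mRNA.

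The study removed Shp2, a protein tyrosine phosphatase encoded by Ptpn11, from rods. The control mice (Het) were RiboTag;Shp2fl/+;i75-Rod-Cre and the knockout mice (KO) were RiboTag;Shp2fl/fl;i75-Rod-Cre, littermates aged 2 weeks. All mice, controls included, carried the RiboTag allele, which adds an HA tag to the ribosomal protein Rpl22 in cells with Cre, and a Cre driven by the rhodopsin promoter. The sample titles call the controls wt, although their listed genotype keeps 1 floxed Shp2 allele. Retinas were perfused with cycloheximide and frozen. Whole-retina RNA gave 3 Het and 3 KO libraries (retina), and RNA bound to HA-tagged ribosomes, pulled down on beads, gave 3 Het and 3 KO libraries (rods, translating ribosome affinity purification or TRAP).

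The deposited values were, by their steps, read counts multiplied by 1 factor per library, and the libraries of a fraction had nearly the same total. About 9980000 to 19230000 reads were estimated behind 5 retina libraries, with the factor of Het retina 3 not resolved, and 11890000 to 25280000 behind the 6 rod libraries. Ptpn11 was at 2511, 2439 and 2431 in Het rods and at 1735, 2139 and 1971 in KO rods. The 8 rod genes summed to a share of the total in rod libraries that was 248 to 345% of the share in the retina library of the same number, and the 10 Müller glia genes to 3.32 to 5.51%.

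The stretches upstream of 3 members, 1 alpha and 2 beta crystallins, are shown first. Like all 9 members, these 3 genes were lowest in Het retina 1 and highest in KO retina 3. Sequences came from RefSeq on build GRCm38.p6 (250 bases before each start to 50 after it), which held 8 of the 9 members and not Cryab. The letters searched on both strands were TATAAA, the TATA box, TGCTGA, the half-site of the recognition element of Maf transcription factors, which act in lens fibre cells, and GAANNTTC, the core of a heat shock element. No motif shares its letters with another. The 250 bases before each start are printed 5′ to 3′ on the gene's strand, with TATAAA and TGCTGA in capitals, for Cryaa at chr17:31677681-31677930 on the plus strand, Cryba1 at chr11:77725294-77725543 on the minus strand and Crybb1 at chr5:112255570-112255819 on the plus strand.
Cryaa: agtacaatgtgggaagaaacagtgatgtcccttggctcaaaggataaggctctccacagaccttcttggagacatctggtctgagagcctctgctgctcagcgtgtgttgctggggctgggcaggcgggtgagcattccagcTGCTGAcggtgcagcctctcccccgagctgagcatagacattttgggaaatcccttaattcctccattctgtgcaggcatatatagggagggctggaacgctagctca
Cryba1: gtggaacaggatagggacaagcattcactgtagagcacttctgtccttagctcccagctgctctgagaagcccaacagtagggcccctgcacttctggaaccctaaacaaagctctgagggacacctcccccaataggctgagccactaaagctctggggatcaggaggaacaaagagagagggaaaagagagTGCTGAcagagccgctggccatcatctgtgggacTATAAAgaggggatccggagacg
Crybb1: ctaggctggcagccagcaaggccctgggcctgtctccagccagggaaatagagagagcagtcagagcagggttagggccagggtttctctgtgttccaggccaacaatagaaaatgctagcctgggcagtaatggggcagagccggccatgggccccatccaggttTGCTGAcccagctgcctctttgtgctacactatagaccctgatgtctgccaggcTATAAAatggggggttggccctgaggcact
TGCTGA was found upstream of 7 of the 8 members, all but Crybb2, and in 19.5% of 32851 mouse promoters of the same length. TATAAA was found in 4 of the 8 (Cryba1, Cryba2, Crybb1 and Crygs) and in 13.6% of all promoters. GAANNTTC was found in 0 of the 8 and in 7.86% of all. A match of 6 letters is a description and not a bound site.

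Of these members, 4 (Cryba4, Crybb1, Crybb2 and Crybb3) are genes of chromosome 5 in that build. Cryba4 and Crybb1 are neighbours on opposite strands. Their searched stretches, chr5:112252469-112252768 (minus) and chr5:112255570-112255869 (plus), do not overlap, and from these starts the genes run away from each other. Whether the authors counted by strand is not given in the sources used here.

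The 9 crystallins differed between libraries far more than the listed markers of Müller glia, ganglion cells and rods. Their summed value was 536, 274130 and 276575 in Het retina 1, 2 and 3 and 81139, 180157 and 877620 in KO retina 1, 2 and 3. As a share of all values this was 0.00369, 1.89 and 1.9% in Het retina and 0.559, 1.24 and 6.04% in KO retina. Het retina 1 was therefore nearly free of crystallin mRNA, and the next lowest library, KO retina 1, held 151 times its sum. KO retina 3 held 3.17 times the sum of the next highest library. The Het and KO libraries overlapped.

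Cryaa (ENSMUSG00000024041) was at 40, 99285 and 68755 in Het retina and at 28764, 52463 and 322302 in KO retina. Cryab (ENSMUSG00000032060) was at 421, 36464 and 40299 in Het retina and at 15225, 22435 and 116785 in KO retina. Both alpha crystallins were lowest in Het retina 1 and highest in KO retina 3, but Cryab was the only member above 40 in Het retina 1.

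Cryba1 (ENSMUSG00000000724) was at 31, 40931 and 105278 in Het retina and at 16505, 61238 and 126389 in KO retina. Crybb2 (ENSMUSG00000042240), the basic beta crystallin that accumulates as the lens matures, was at 13, 49293 and 24473 in Het retina and at 10274, 17632 and 156664 in KO retina. The order of Het retina 2 and Het retina 3 was opposite for these 2 genes. Crygs (ENSMUSG00000033501), the gamma crystallin of the outer lens, was at 11, 23120 and 22657 in Het retina and at 5537, 15919 and 75439 in KO retina. It was nearly equal in Het retina 2 and 3.

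Cryba2 (ENSMUSG00000006546) was at 7, 12430 and 9273 in Het retina and at 3061, 6384 and 35231 in KO retina. Cryba4 (ENSMUSG00000066975) was at 7, 7821 and 3662 in Het retina and at 1119, 2652 and 26832 in KO retina. These acidic beta crystallins had the same order of libraries, with Het retina 2 above Het retina 3. Crybb1 (ENSMUSG00000029343) was at 2, 2583 and 1383 in Het retina and at 459, 1029 and 10754 in KO retina. Crybb3 (ENSMUSG00000029352), the least abundant member in the retina libraries other than Het retina 1, was at 4, 2203 and 795 in Het retina and at 195, 405 and 7224 in KO retina. In all 9 genes Het retina 1 was the lowest of the 6 libraries, KO retina 1 the next and KO retina 3 the highest.

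**Figure D1:**
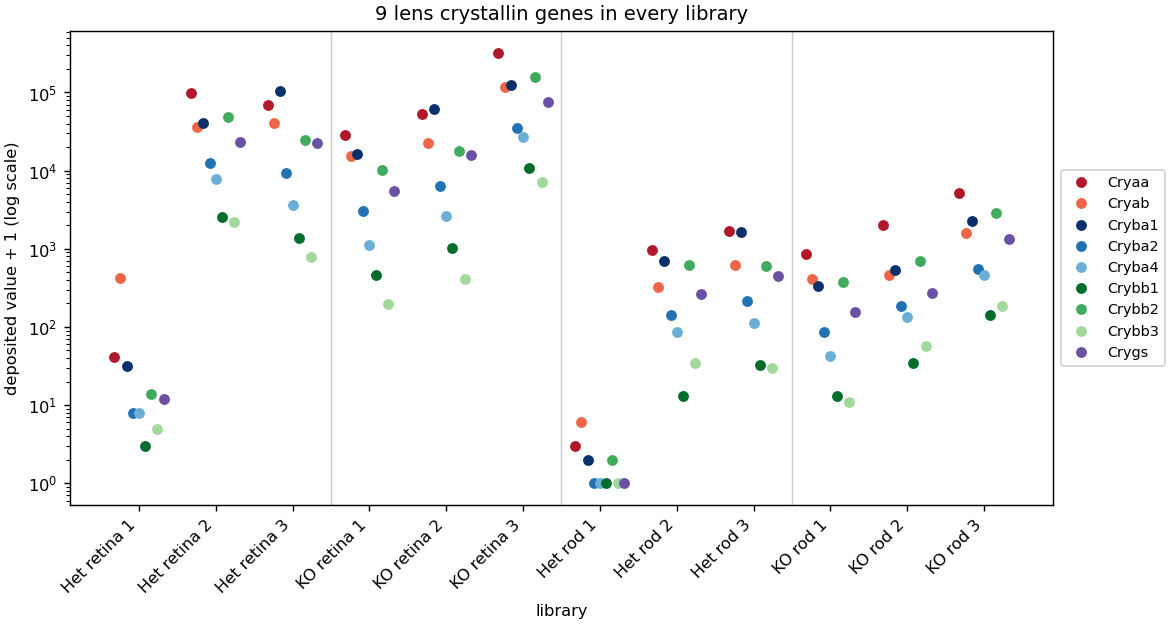
Deposited value plus 1 (log axis) of the 9 crystallin genes, 1 point per gene, in each of the 12 libraries. Het retina 1 and Het rod 1 lie far below the other libraries of their fraction, and Cryab, at 421, stands apart from the other members in Het retina 1.

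In the rod libraries the same genes were present at lower values. The 9-gene sum was 9, 3121 and 5366 in Het rods 1, 2 and 3 and 2290, 4367 and 14538 in KO rods, or 5.53e-05, 0.0192 and 0.033% of the total against 0.0141, 0.0268 and 0.0894%. Het rod 1 was the lowest and KO rod 3 the highest, as were the retina libraries of the same group and number. Cryaa was at 2, 958 and 1671 in Het rods and at 868, 1994 and 5142 in KO rods. Cryab was at 5, 326 and 624 in Het rods and at 405, 461 and 1574 in KO rods. Cryba2, Cryba4, Crybb1, Crybb3 and Crygs were at 0 in Het rod 1, which allows a share of up to 2.2e-05% (3 reads) for counting error.

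Divided by the length in kilobases of each gene's longest protein-coding transcript (GENCODE M21), the levels had a nearly fixed order in retina. Cryaa or Cryba1 came first in all retina libraries but Het retina 1. Cryaa stood at 78420, 54310, 22720, 41440 and 254600 per kilobase in Het retina 2 and 3 and KO retina 1, 2 and 3. Cryba1 stood at 52610, 135300, 21210, 78710 and 162500 per kilobase in the same libraries, so that the 2 changed places from library to library and their order is not set. Cryab took place 3 or 4 in those libraries and Crybb2 place 2 or 4. Crygs was the fifth, Cryba2 the sixth and Cryba4 the seventh in all 6 retina libraries. Crybb1 and Crybb3 were the lowest, in an order that was reversed in Het retina 1 and in 3 rod libraries, where both were under 200 as deposited. In Het retina 1 Cryab came first, with 376.9 per kilobase against 39.85 for Cryba1 and 31.6 for Cryaa.

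The proportions between the members separated Het retina 1 from all other retina libraries. Cryab made up 78.5% of the 9-gene sum in Het retina 1 and 12.5 to 18.8% in the other 5 retina libraries. With the estimated reads this was 501 of 637, or 78.6% (exact 95% binomial interval 75.3 to 81.8, for counting error only). Cryaa, in contrast, was 7.46% of the sum in Het retina 1 and 24.9 to 36.7% elsewhere. In the rod libraries with more than 9 in all, Cryab was 10.4 to 17.7% and Cryaa 30.7 to 45.7%.

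Measured against Cryaa, Cryab was at a ratio of 10.5 in Het retina 1 and at 0.367, 0.586, 0.529, 0.428 and 0.362 in Het retina 2 and 3 and KO retina 1, 2 and 3. The exact 95% interval of the ratio in Het retina 1, from reads, was 7.75 to 14.3, and its value was 18.0 times the highest of the others. For 6 of the other 7 members the interval in Het retina 1 overlapped the range of the other retina libraries. Crybb2 and Crygs were 2 of them, with intervals of 0.163 to 0.568 and 0.135 to 0.508 against ranges of 0.336 to 0.496 and 0.192 to 0.33. Crybb3, from 5 reads, was the exception, with an interval of 0.0324 to 0.26 against 0.00678 to 0.0224.

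Genes of lens fibres that are not crystallins were also high against Cryaa in Het retina 1, on few reads. Mip, the water channel of lens fibres, had an interval of 0.121 to 0.478 from 12 reads against a range of 0.0519 to 0.108. The beaded filament gene Bfsp1 had 0.094 to 0.417 from 10 reads against 0.011 to 0.0542. For Bfsp2, the partner of Bfsp1 that was singled out after its values were seen, it was 0.249 to 0.745 from 21 reads against 0.00973 to 0.0192. Thus Cryab was not alone in its raised ratio to Cryaa, but among these genes it was the only one with more than 48 reads in that library.

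**Figure D2:**
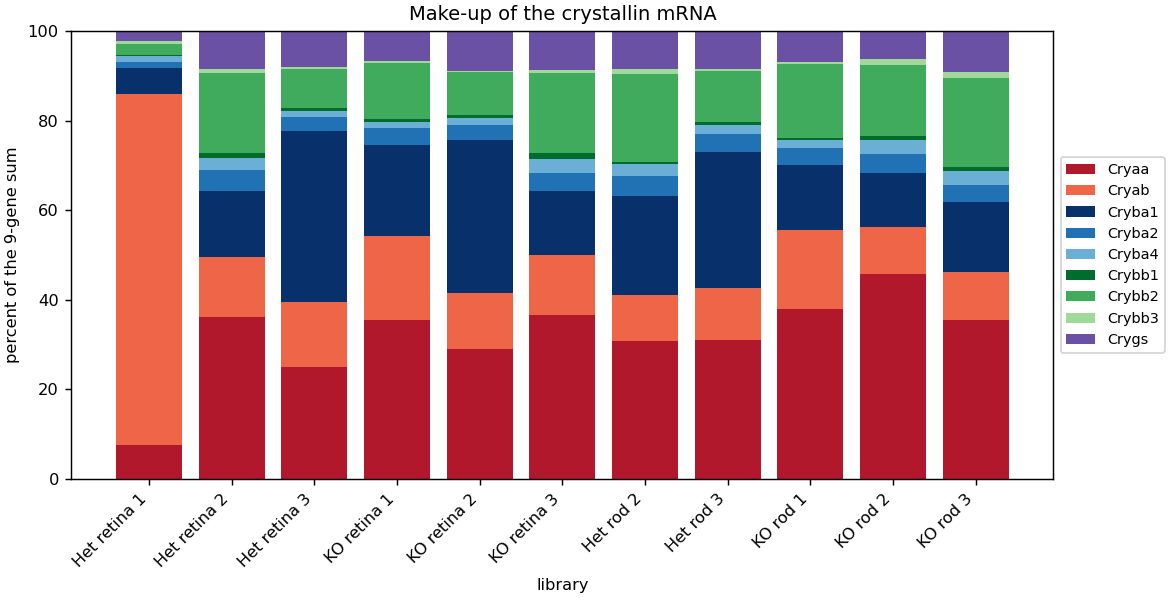
Percent of the 9-gene sum taken by each crystallin (stacked bars, 0 to 100%) in 11 libraries, with Het rod 1 left out because its sum was 9. Cryab fills 78.5% of the bar of Het retina 1 and 10.4 to 18.8% of the other bars.

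Genes outside the crystallins were then set beside them. The 12 lens fibre genes (13 on the list, without Caprin2, which was at 269 to 458 in all retina libraries and was left out after its values were seen) summed to 51, 20574 and 14486 in Het retina and to 4394, 9377 and 64866 in KO retina. This was 9.51% of the crystallin sum in Het retina 1 and 5.2 to 7.51% in the other retina libraries. Cryab made up 78.5% of the sum in Het retina 1, so the 9.51% does not show a kept proportion to the other members. Against Cryaa, the lens fibre genes Mip, Bfsp1 and Bfsp2 were higher in Het retina 1 than in the other retina libraries. Mip was at 10, 5968 and 7410 in Het retina and at 1989, 4712 and 16713 in KO retina. The lens fibre genes thus had the same lowest and highest retina library as the crystallins. Lim2, a lens membrane protein, was listed at 0 in all 12 libraries.

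Pigment cell, iris and connective tissue markers did not have this order. The 12 genes of retinal pigment epithelium (RPE) and pigment cells summed to 3930, 2554 and 12054 in Het retina and to 929, 2363 and 21429 in KO retina. Het retina 1 was the third highest of the 6 for them. Dct and Tyrp1, enzymes of melanin synthesis, were at 1234 and 672 in Het retina 1 and at 638 and 182 in Het retina 2. The 10 genes of iris muscle and connective tissue summed to 735, 545 and 1755 in Het retina and to 173, 350 and 4121 in KO retina. KO retina 3 was the highest of the 6 in pigment and in iris and connective tissue genes as well as in crystallins. The cornea and conjunctiva list did have the order of the crystallins, with a sum of 18, 364 and 353 in Het retina and of 213, 221 and 569 in KO retina, in most libraries almost all of it Aldh3a1, a soluble enzyme abundant in cornea and lens. Its keratins Krt5, Krt12 and Krt15 stayed at 15 or less in every retina library.

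Markers of Müller glia, a cell type of the retina itself, differed less between libraries. The 10 Müller glia genes summed to 44615, 65375 and 54924 in Het retina and to 50553, 44254 and 71190 in KO retina, and Glul, the glutamine synthetase of Müller glia, ranged from 19528 to 32427. Of the same list, Clu, Apoe and the filament gene Vim were lowest in Het retina 1 and highest in KO retina 3, as the crystallins were, with 2.88-, 3.53- and 4.42-fold between these 2 libraries. The enzyme crystallins and crystallin relatives that are not structural lens proteins, 8 genes, summed to 2470, 2580 and 2643 in Het retina and to 2632, 2548 and 2282 in KO retina. Crym, a thyroid hormone binding protein, was at 493 in Het retina 1 and at 460 to 775 in the other retina libraries. Their sum thus lacked the low value in Het retina 1 that the structural crystallins had.

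**Figure D3:**
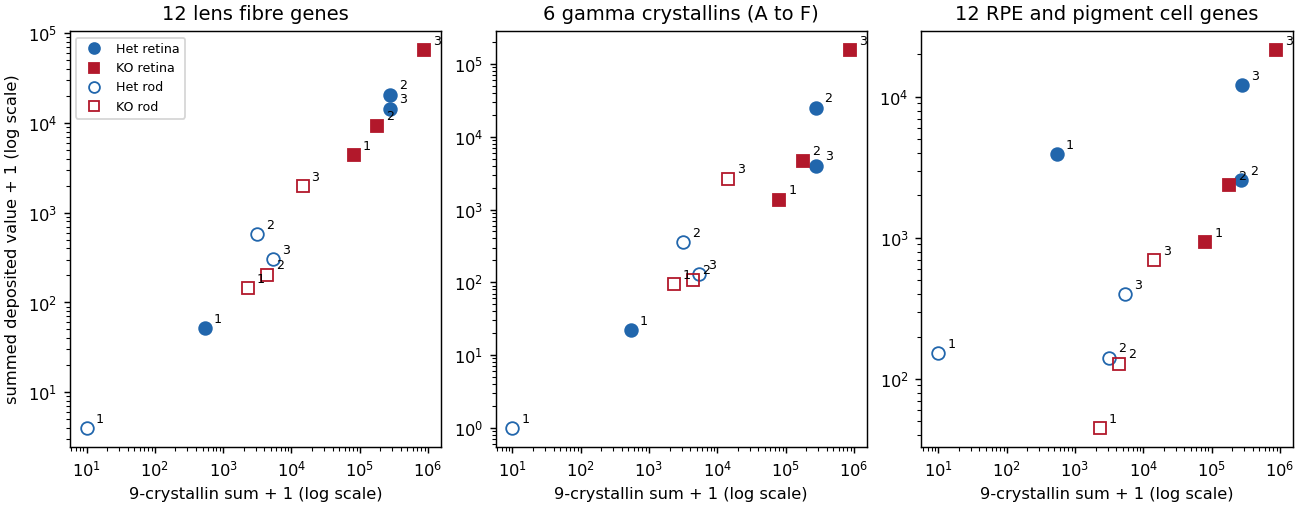
Summed value plus 1 of 12 lens fibre genes, 6 gamma crystallins and 12 RPE and pigment cell genes (vertical, log) against the 9-crystallin sum plus 1 (horizontal, log), 1 point per library with its number. Lens fibre genes are at 5.2 to 7.51% of the crystallin sum in the retina libraries other than Het retina 1. In Het retina 1 they are at 9.51% of a sum that is 78.5% Cryab. Pigment cell genes are at 3930 in Het retina 1, where the crystallins are at 536.

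The other 5 retina libraries also differed among themselves in which crystallins they held. The gamma crystallins Cryga to Crygf, which mark the older fibres of the lens core, summed to 9.14 and 17.6% of the 9-gene sum in Het retina 2 and KO retina 3, and to 1.44, 1.68 and 2.59% in Het retina 3, KO retina 1 and KO retina 2. Crygb was at 12603 in Het retina 2 and 68568 in KO retina 3 but at 2719, 865 and 3494 in the other 3. Cryba1 relative to Crybb2 went the other way, with 0.83 and 0.807 in Het retina 2 and KO retina 3 and 4.3, 1.61 and 3.47 in Het retina 3, KO retina 1 and KO retina 2. The genotypes were thus mixed on both sides of this difference.

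Lens fibre genes showed it too. Bfsp1 was at 5238 and 17462 in Het retina 2 and KO retina 3 and at 945, 317 and 979 in Het retina 3, KO retina 1 and KO retina 2. Lgsn, a glutamine synthetase relative of the lens, was at 3623 and 14012 in the first 2 and at 215, 182 and 108 in the others. The small heat shock gene Hspb1, singled out after its values were seen, was at 563 and 1878 in the first 2 and at 23, 39 and 29 in the others. Of the rod libraries, Het rod 2 and KO rod 3 had the highest gamma shares, 11.4 and 18.2% against 2.39, 4.1 and 2.45%. In gamma share the highest rod libraries thus had the group and number of the highest retina libraries. Cryba1 relative to Crybb2 did not show the split in KO rods, with 0.876, 0.758 and 0.784 in KO rod 1, 2 and 3. In Het rods this ratio was lower in Het rod 2 than in Het rod 3, as in retina.

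Between the lowest and the highest of these 5 retina libraries, Cryba1 spanned 7.66-fold and Cryab 7.67-fold. Cryaa, Cryba2, Crygs and Crybb2 spanned 11.2- to 15.2-fold, Crybb1 and Cryba4 23.4- and 24.0-fold and Crybb3 37.0-fold. Crygb, Crygc and Crygd spanned 79.3-, 143- and 183-fold. As shares of the 9-gene sum, Crygs (1.29-fold), Cryba2 (1.35-fold), Cryaa (1.48-fold) and Cryab (1.51-fold) varied least among the members and Crybb3 (3.66-fold) the most.

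Among 16863 genes, the 9 whose log2 values over the 6 retina libraries were most like the mean of the 9 members were Wnt7a, Wnt7b, Gja3, Mip, Tmem40, Grifin, Aldh3a1, Rspo1 and Fgfr3, with Pearson's r from 0.999 down to 0.992. Without Het retina 1 the r of these genes was 0.951 to 0.996. Wnt7a, a secreted signalling protein, was at 0, 84 and 72 in Het retina and at 33, 50 and 152 in KO retina. Rspo1, another secreted factor, was at 1, 104 and 130 and at 39, 83 and 216. Those most like Cryab included 7 of these genes, all but Mip and Aldh3a1, and also Crygn and Sox1. All points share the low Het retina 1 library, so these r are a description.

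Whether the crystallins differed with the rod deletion of Shp2 was asked first in whole retina, by limma on log2 values. All 9 members had a higher mean log2 value in KO, from 1.94 ± 2.83 (SE) for Crybb3 to 3.59 ± 3.49 for Cryaa on the log2 scale (n = 3 against 3). None was called (adjusted p 0.999987 for each, unadjusted p 0.353 to 0.525 by limma), where called means an adjusted p under 0.05 and a log2 fold change beyond 0.5. Over all genes tested, 0 of 16863 (0%) were called and 140 (0.83%) had an unadjusted p under 0.05, of which 0 were members. The median log2 fold change was 3.14 over the members and 0.01 over all genes. No member had groups that did not overlap, which was the case for 3.5% of all genes.

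This difference rested on 1 library. Without Het retina 1 all 9 members had a lower mean log2 value in KO, with log2 fold changes of -0.065 ± 0.96 for Cryaa to -0.66 ± 1.51 for Crybb3, again with no call. The summed share gave the same picture, with a difference KO minus Het of 0.833 on the log10 scale (two-sided exact permutation test, p = 0.7) that became -0.0705 without Het retina 1 (exact p = 0.8). The smallest p that 3 against 3 allows is 0.1. The other gamma crystallins (0 of 5 tested) and the lens fibre genes (0 of 10 tested) had no call either, with medians of 2.87 and 2.30.

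**Figure D4:**
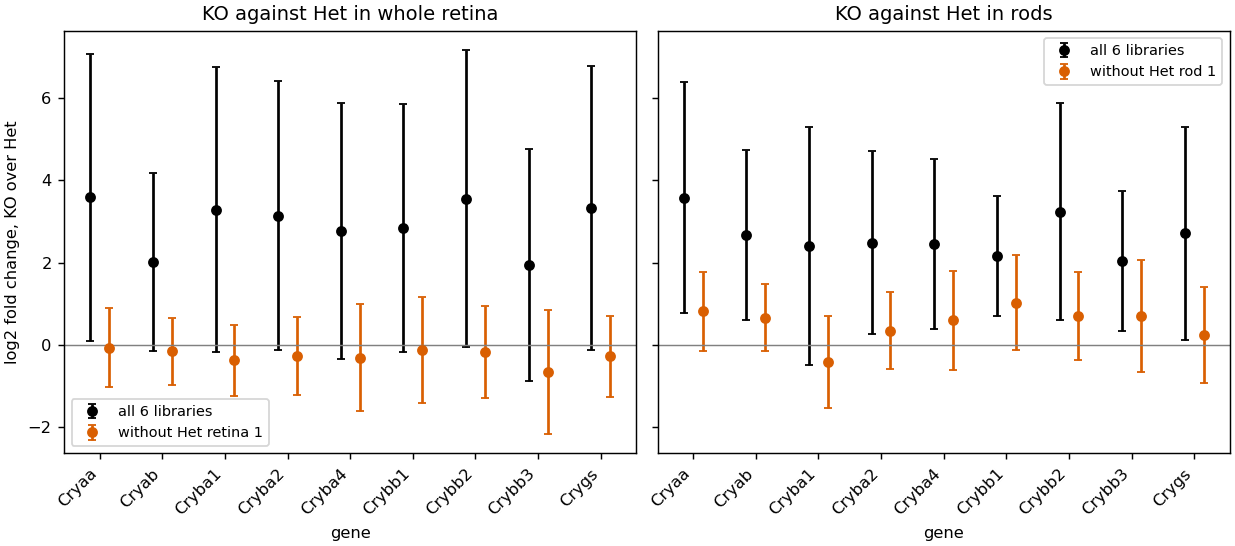
Log2 fold change KO over Het of each crystallin (points, with bars of 1 SE from limma) in whole retina and in rods, with all 6 libraries (black) and without Het replicate 1 (orange). In retina the 9 black points lie between 1.94 and 3.59 and the 9 orange points between -0.66 and -0.065.

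In rods, the mean log2 value was again higher in KO for all 9 members, from 2.04 ± 1.71 for Crybb3 to 3.58 ± 2.81 for Cryaa. None was called (adjusted p 0.353 to 0.604 by limma) and none had groups that did not overlap. Over all genes 1781 of 13055 (13.6%) were called, 1579 higher (12.1%) and 202 lower (1.55%), and 43.5% had groups that did not overlap. At an unadjusted p under 0.05 there were 0 members and 37.7% of all genes. Without Het rod 1 the log2 fold changes were 0.25 to 1.03 for 8 members and -0.42 for Cryba1. The summed share differed by 0.995 on the log10 scale (two-sided exact permutation test, p = 0.5), and by 0.109 without Het rod 1. A crystallin at 0 in Het rod 1 has a fold change that depends on the pseudocount of 2. Müller glia genes moved with the genotype in part, since 2 of 8 tested (Apoe and Clu, secreted apolipoproteins) were called higher in KO rods, while their summed value was 2013 to 3388 in Het and 2067 to 2862 in KO rods; their part in the crystallin values was not tested.

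The direct test of whether the KO difference was unlike in rods and retina called 0 of 17192 genes (517, or 3.01%, at an unadjusted p under 0.05). The adjusted p of the members was 0.973 to 0.999 by limma, and 0 had an unadjusted p under 0.05.

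The crystallin signal in the rod libraries was described by the share of a gene in a rod library as a percent of its share in the retina library of the same group and number. This percent does not separate RNA on rod ribosomes from other RNA in the pull-down. Same-numbered KO rod and KO retina libraries did not deviate together over all genes (correlations of 0.333, -0.0122 and 0.184), so KO pairs match by number only. For the 9-gene sum this was 1.5, 1.02 and 1.73% in Het 1, 2 and 3 and 2.52, 2.16 and 1.48% in KO 1, 2 and 3. The lens fibre genes stood at 5.25, 2.51 and 1.87% and at 2.91, 1.94 and 2.71%. Without the pair Het 1, the crystallins lay at 1.02 to 2.52%, the lens fibre genes at 1.87 to 2.91%, ganglion cell genes at 1.69 to 2.92%, Müller glia genes at 3.32 to 5.51% and pigment cell genes at 2.88 to 4.93%. Rod genes were at 248 to 345% in the same pairs. The 9-gene sum was below the ganglion cell genes of the same pair in 5 of 6 pairs, all but KO 2. The lens fibre genes were above the ganglion cell genes in Het 1, Het 2, KO 2 and KO 3, and below them in Het 3 and KO 1. The source of the crystallin RNA in the rod libraries was not tested.

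Cryab stood at 0.798 to 2.38% and Cryba1 at 0.773 to 1.8% over those 5 pairs. In the pair Het 1, where Cryab was 78.5% of the crystallin sum in retina, it was at 4 estimated reads in rods and 501 in retina, a rod share of 1.02% of the retina share (exact 95% interval 0.278 to 2.64). Crybb3 had the widest range, 1.38 to 12.3%, on values of 10 to 187 in rods.

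**Figure D5:**
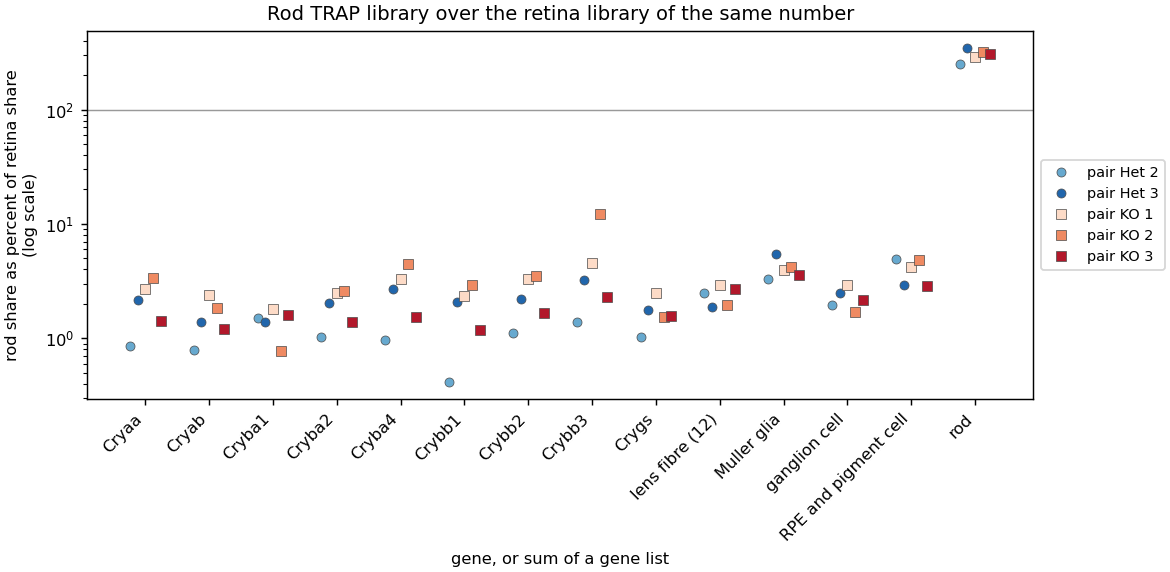
Share of each crystallin, and of 5 gene lists, in a rod TRAP library as a percent of its share in the retina library of the same group and number (log axis, 1 point per pair, Het 1 left out). The members lie between 0.415 and 12.3%, and the rod genes between 248 and 345%.

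Fitted by limma, rods were below retina in all 9 members, with log2 fold changes of -5.97 to -3.86 in Het and -5.69 to -3.65 in KO. In KO 7 of 9 were called lower, all but Cryba4 and Crybb3, where 36.1% of 16121 genes were called lower. In Het 0 of 9 were called, 36.4% of 16110 genes were called lower, and at an unadjusted p under 0.05 there were 0 members and 66.6% of all genes. With the replicate number as a block, 9 of 9 were called in Het, where 6056 of 16110 genes were called lower. In a fit that was not planned, without both Het libraries of replicate 1, the fold changes were -6.19 to -5.05. There 9 of 9 were called, and 5256 of 16401 genes were called lower. The members were chosen with their values in both fractions known, so these counts describe them and test nothing. In bulk RNA, fewer cells that hold a crystallin mRNA and less of it per cell cannot be told apart.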

How the data were processed

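RNA was measured in 12 libraries, 3 per group, grouped by the genotype and fraction in the labels. Per the labels and the study's methods, polyadenylated RNA was made into libraries with SMART-Seq V4, and CASAVA 1.8.2, HISAT2, DESeq2 and edgeR are named, with build GRCm39, in the submitters' processing notes; strandedness is not given in the sources used here. The values the authors deposited have the unit score: whole numbers that, by their steps, are counts multiplied by 1 factor per library and rounded, so no count test was run, although the plan allowed edgeR and DESeq2 on raw counts. Factors, and reads, were estimated from gaps between low values.

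Values were scaled by a TMM calculation, filtered (at least 10 in 3 libraries, sum at least 15), put on the scale log2(value + 2) and fitted with limma 3.58.1 (R 4.3.3; trend, robust), with Benjamini-Hochberg adjustment over all genes. Fold changes on this scale understate those of low genes. The fits were tested on simulated data. Shares were compared with SciPy 1.17.1 and figures drawn with matplotlib 3.10.9. All columns were used. Nothing says whether replicates of a number share animals. Deviations of same-numbered rod and retina libraries correlated at 0.468, 0.412 and 0.252 in Het, which was taken as pairing. In KO they correlated at 0.333, -0.0122 and 0.184, which was not.

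The members and gene lists were chosen with earlier results of these data known. From each other list up to 4 genes with the highest mean and any gene called between genotypes could be named, with the 10 genes most like the members; names outside this rule are marked, and some results under it are not reported here. Alternatives were another scaling, pseudocount and filter, a replicate block, and each library left out. Leaving out both Het libraries of replicate 1 was not planned. p-values measure the spread between these samples, which may be technical.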

Additional observations from a re-analysis of the deposited data

How the results depend on the processing

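Under another scaling, pseudocount or filter, all 9 members kept the direction of each comparison of 2 groups, and none became called between genotypes. Leaving out 1 library gave log2 fold changes KO over Het in retina of -0.065 to 5.55 (Cryaa), -0.16 to 3.15 (Cryab), -0.38 to 5.46 (Cryba1), -0.28 to 4.94 (Cryba2), -0.31 to 4.58 (Cryba4), -0.13 to 4.54 (Crybb1), -0.18 to 5.67 (Crybb2), -0.66 to 3.60 (Crybb3) and -0.28 to 5.13 (Crygs), every negative value without Het retina 1. In rods the range for Cryba1 was -0.42 to 4.10. The summed share differed by -0.0705 to 1.29 (retina) and 0.109 to 1.5 (rods). Calls over all genes ranged from 0 to 1 in retina and for the difference between fractions, and from 1069 (without Het rod 1; 1173 without KO rod 2) to 1956 in rods, with the cause not tested.

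Same-numbered KO and Het libraries did not deviate together (0.404, -0.585 and -0.139 in retina; 0.183, 0.0334 and 0.0258 in rods), nor did KO rods and KO retina (0.333, -0.0122 and 0.184). With the replicate block, 0 genes were called in retina, 1912 of 13055 in rods (2 members, Crybb1 and Crybb3) and 0 for the difference. For KO rods against retina 9982 of 16121 were called (9 members), and for Het rods against retina 9946 of 16110. Without Het retina 1, 3 members were called between Het rods and Het retina, where 5766 of 16678 genes were called lower. Leaving out KO retina 2, KO rod 1 or KO rod 2 left 2 members called between KO rods and KO retina. In these fits 5985 of 16664, 6063 of 16868 and 6068 of 16857 genes were called lower. The range with 1 library left out was 2 to 8 members. With library size alone, calls KO against Het in rods split 1202 higher and 584 lower, against 1579 and 202, and Het rods against Het retina split 1168 and 7399, against 3650 and 5856, with a median over all genes of -0.51; KO rods against KO retina split 1144 and 7846, against 4341 and 5813, with a median of -0.55. The crystallin sum was 15.4 times the sum of all 13 lens fibre genes, Caprin2 included (median of retina libraries). It was 24.4 times without Mip, which takes that gene out of the divisor. After rod-depleted genes were removed, 1522 of 10134 genes and 0 members were called in rods. Without a filter 5 of 9 members were called between KO rods and KO retina, where 8339 of 28954 genes were called lower. The SE of members also changed, and the cause was not tested. The depth limits Het rod 1, with 8 crystallin reads, and Het retina 1, where Crybb1 rests on 2.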

Other observations

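Of the lens transcription factors, Pax6, Prox1 and Tdrd7 differed little between the retina libraries. Pax6 was at 3346, 3575 and 3785 in Het retina and at 3797, 3344 and 3579 in KO retina, and Prox1 at 2730, 2284 and 3099 and at 2628, 2793 and 2232. Maf was at 163, 315 and 530 and at 285, 346 and 617, lowest in Het retina 1 and highest in KO retina 3. Hsf4, a lens heat shock factor that was named after its values were seen, was at 30, 162 and 39 and at 63, 41 and 252, with the same lowest and highest library. Sox1, one of the genes most like Cryab, was at 0, 35 and 50 and at 15, 26 and 94. Of the list, 0 of 6 tested were called between genotypes in retina (0% of all genes) and 0 of 4 tested in rods (13.6% of all genes), with 0 at an unadjusted p under 0.05 by limma in either. Tdrd7, an RNA granule protein needed in the lens, had a higher level in rods than in retina in both genotypes (log2 fold change 1.55 ± 0.11 in Het and 1.53 ± 0.12 in KO, limma adjusted p 6.47e-06 and 1.1e-05).

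Of 6 heat shock genes tested in rods, 3 were called higher in KO, as were 12.1% of all genes: Hspa1b (log2 fold change 0.86 ± 0.19, limma adjusted p 0.0148), Dnajb1 (0.54 ± 0.10, adjusted p 0.00413) and Hsf1 (0.58 ± 0.16, adjusted p 0.0213). Hspa1b encodes an inducible chaperone of the Hsp70 family, Dnajb1 its co-chaperone and Hsf1 their transcription factor. Hspb2, the neighbour of Cryab and singled out after its values were seen, was at 1, 6 and 18 in Het retina and at 9, 9 and 26 in KO retina and at 0 in all rod libraries.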
